A study of Mus musculus with 6 samples.

Results

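A set of 10 core pluripotency genes was followed across unmodified and METTL3-edited mouse embryonic stem cells. They are Pou5f1, Sox2, Sall4, Utf1, Fbxo15, Dppa2, Dppa4, Dppa5a, Nr0b1 and Tcl1. They were chosen by symbol, make up 10 of the 24984 gene symbols in the count tables, and all 10 were among the 15663 genes that passed the filter on low counts. RNA was sequenced from E14TG2a cells, a mouse embryonic stem cell line, kept in N2B27 medium. What had been added to that medium is not given in the sources used here. There are 6 libraries, 2 from each of 3 genotypes: the unmodified line (WT), a line in which CRISPR/Cas9 had disrupted METTL3 (KO), and a line given the METTL3 D395A substitution by CRISPR/Cas9-directed integration (D395A). METTL3 is the catalytic subunit of the enzyme complex behind N6-methyladenosine (m6A) marks in RNA, and D395 lies in its catalytic motif. The labels name no separate clones or cultures within a genotype, so the edit and the history of the line cannot be told apart, and p-values rest on a spread between libraries that may be technical.

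Pluripotent cells can form all tissues of the embryo. OCT4 (gene Pou5f1) and SOX2 bind DNA side by side at composite sites and hold this state together with a wider network that includes NANOG and SALL4. Utf1 and Fbxo15 are classic targets of the OCT4-SOX2 pair, DAX1 (Nr0b1) binds OCT4, and the Dppa and Tcl1 genes are named for, or known from, their expression in early embryos and germ cells. Their transcripts serve as reporters of the undifferentiated state.

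Gene counts totalled 22859491 to 40476809 per library, and 1 count equalled 0.0246 to 0.0426 CPM (a gene's count relative to its library's total, scaled by trimmed means). Mettl3 itself measured 28.5 and 31.6 CPM in the WT libraries, 7.82 and 6.17 in those of KO, and 21.1 and 23.4 in those of D395A, a fall in KO of 2.10 ± 0.11 (log2 ± SE) and in D395A of 0.43 ± 0.10. Values below written as CPM ± are SDs over 2 libraries, and log2 values ± are SEs of the fit. Between the libraries of a group, the chi-square per degree of freedom was 3.19 to 11.1, above sampling noise. Libraries also differed in reads that matched no counted feature. These held 22.3% to 37.3% of all counted reads, highest in D395A replicate 1 and lowest in KO replicate 2. Whether such reads lay in introns or between genes is not given. Values of the 10 genes in replicate libraries lay close to each other even so. Their median absolute log2 ratio between replicates was 0.07 (WT), 0.09 (KO) and 0.12 (D395A), beside 0.06, 0.07 and 0.10 over the 9212 genes with a mean of at least 10 CPM.

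Measured per kilobase of exon, which allows levels of different genes to be set side by side, Dppa5a led in WT at 439 CPM per kilobase, followed by Pou5f1 at 212 and Sox2 at 141. Fbxo15 (78.4), Sall4 (64.7) and Utf1 (55.8) came next, then Tcl1 (32.6), Dppa4 (28), Dppa2 (26.1) and Nr0b1 (19.4). No neighbours in this order overlapped between their WT libraries. In WT the level per kilobase of each of the 10 stood above that of at least 83.7% of tested genes, and that of Dppa5a above 99.7%. In D395A the order of these levels per kilobase changed: Sox2 (145), Pou5f1 (143) and Dppa5a (130) came first, with overlapping libraries between Sox2 and Pou5f1 and between Pou5f1 and Dppa5a. Nr0b1 moved from the last place in WT to the sixth in D395A, at 40.5 CPM per kilobase, and Tcl1 was last at 1.84. In KO, Dppa5a (542), Pou5f1 (283) and Sox2 (139) kept the first places, and Dppa2 (22.3) and Dppa4 (21.2) overlapped. With the longest transcript as the length in place of all exons, 6 of the 10 genes kept their rank over all libraries. On that length Pou5f1 came first in D395A at 237 CPM per kilobase, above Sox2 (145) and Dppa5a (130) without overlap, so the lead of Sox2 there rests on the length used.

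**Figure D1:**
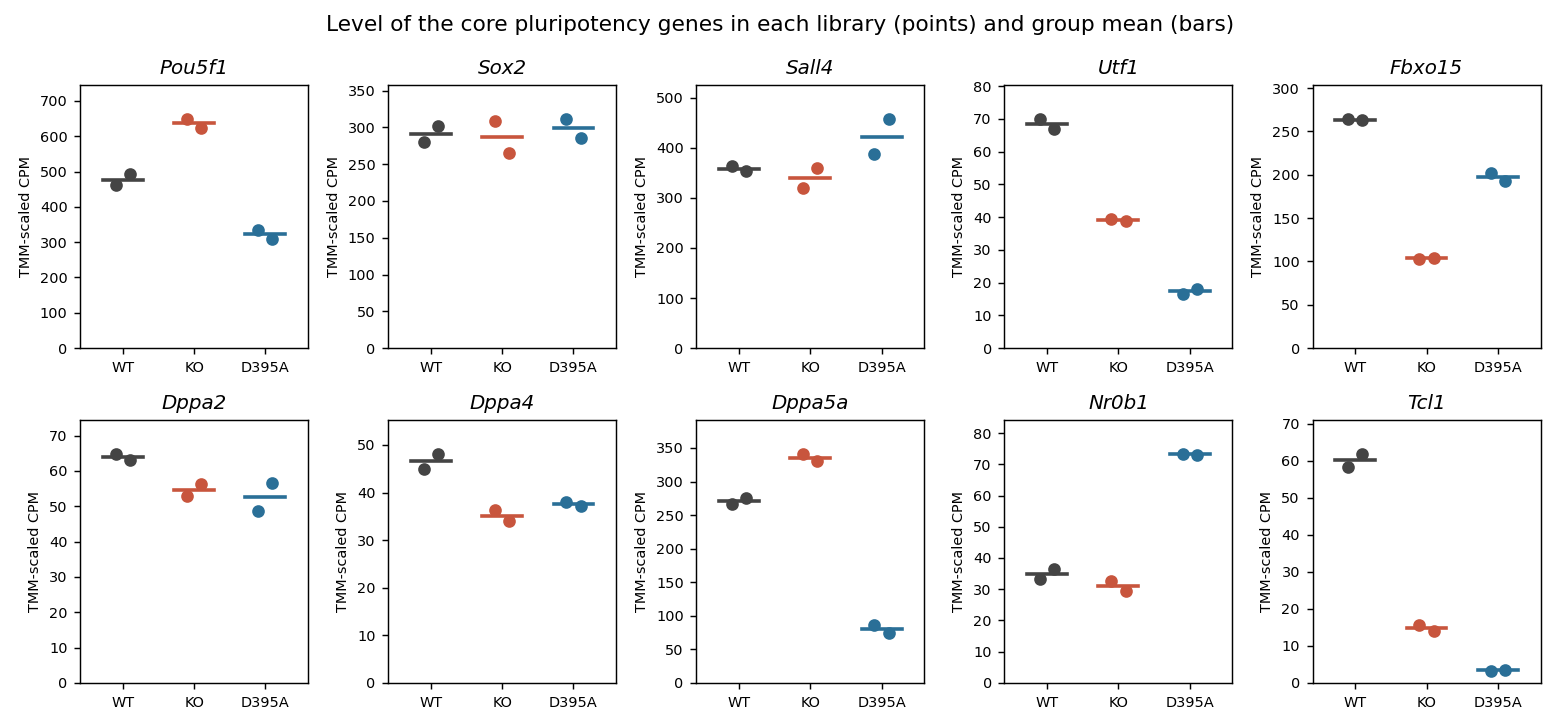
Level of each core pluripotency gene in every library. The vertical axis of each panel starts at 0 and gives TMM-scaled CPM, points are the 2 libraries of WT, KO and D395A, and bars are group means. Pou5f1 and Dppa5a are highest in KO and lowest in D395A, Utf1 and Tcl1 step down from WT to KO to D395A, and the Sox2 groups overlap.

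The first comparison asked how the group stood in the METTL3 knockout line. With edgeR's quasi-likelihood test and Benjamini-Hochberg adjustment, 7 of the 10 genes changed in KO against WT at an adjusted p under 0.05, 2 higher and 5 lower. Over all tested genes 66.2% were called, 33.6% higher and 32.6% lower, so the share of the group that was called is near the background. The median log2 fold change of the 10 genes was -0.20, beside 0.01 for all tested genes. In D395A against WT, 9 of the 10 genes changed, 2 higher and 7 lower, where 70.3% of all tested genes were called, 36.3% higher and 34.0% lower. The median of the group was -0.36, beside 0.02 for all tested genes. Falls of at least 2-fold were seen for Fbxo15 and Tcl1 in KO and for Utf1, Dppa5a and Tcl1 in D395A, and Nr0b1 rose 2.09-fold in D395A. Changes of at least 2-fold past the threshold made up 24.3% of all tested genes in KO and 29.0% in D395A. The libraries of KO and WT did not overlap for 8 of the 10 genes (2 higher, 6 lower), where this held for 83.9% of all tested genes, 42.2% higher and 41.7% lower. Those of D395A and WT did not overlap for 9 (2 higher, 7 lower), where this held for 85.3% of all tested genes, 43.7% higher and 41.6% lower. These comparisons share the WT libraries.

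In the direct comparison of D395A with KO, 7 of the 10 genes differed, 3 higher and 4 lower in D395A, where 50.4% of all tested genes were called, 26.5% higher and 23.8% lower. This comparison is the test of whether the lines differ from each other. Sox2, Dppa2 and Dppa4 did not pass it. The libraries did not overlap for 8 genes (4 higher, 4 lower), where this held for 74.7% of all tested genes, 39.4% higher and 35.3% lower. A difference of at least 2-fold past the threshold was seen for 4, beside 15.9% of all tested genes. As a share of all gene counts, the 10 genes together took 0.192% and 0.197% in the WT libraries, 0.186% and 0.181% in those of KO, and 0.154% and 0.152% in those of D395A. These totals include the ribosomal RNA gene Rn45s, whose own share differed between the groups. It took 10.8% and 11.2% in the WT libraries, 16.7% and 15.7% in those of KO, and 14.3% and 13.9% in those of D395A. The small step from WT to KO in the share of the 10 genes is therefore not read as a change. In bulk RNA, fewer cells that express a gene and less of its RNA per cell cannot be told apart.

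**Figure D2:**
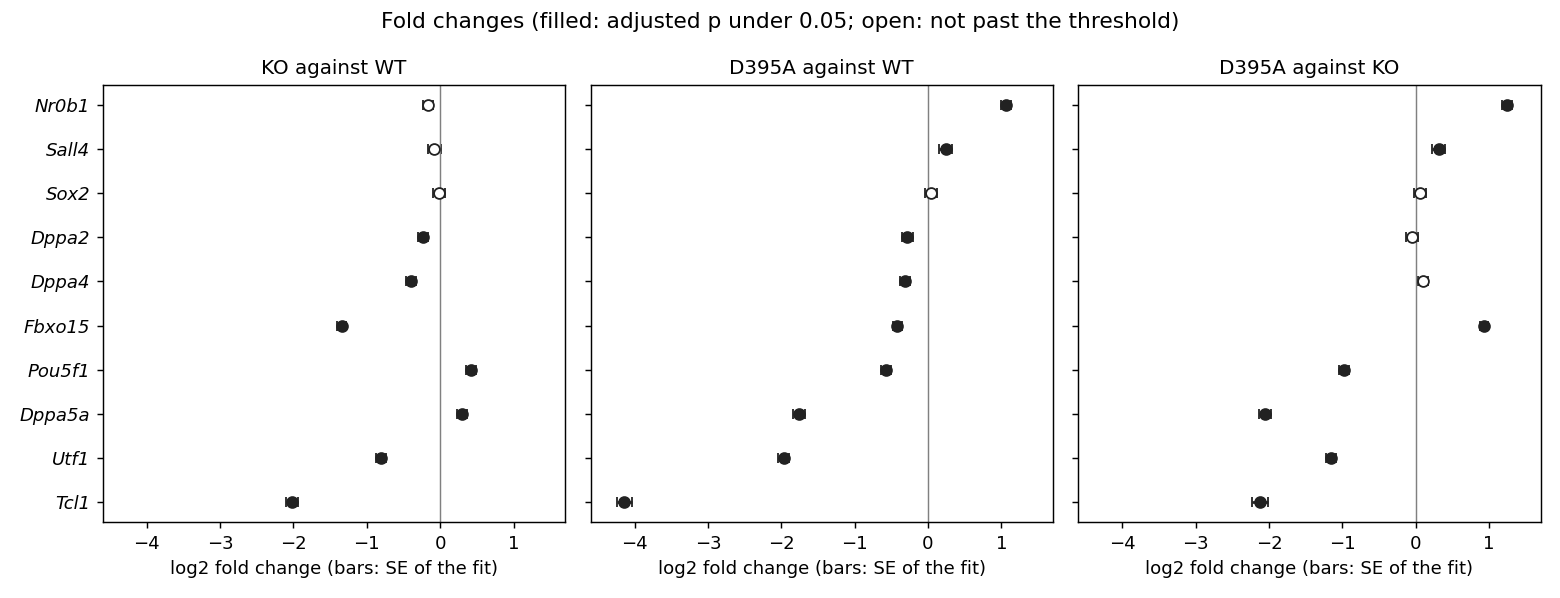
Log2 fold change of each gene (points) with the SE of the fit (bars) in the 3 comparisons; filled points have an adjusted p under 0.05. Genes are ordered by their change in D395A against WT, from Tcl1 at -4.14 to Nr0b1 at 1.06, and Sox2 is open in all 3 panels.

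Of the transcription factors at the centre of the network, Pou5f1 moved in opposite directions in the edited lines and Sox2 passed no test. Pou5f1, which encodes OCT4, measured 461 and 493 CPM in the WT libraries, 648 and 624 in those of KO, and 335 and 310 in those of D395A. The KO libraries lay above both WT libraries and the D395A libraries below them. The rise in KO was 0.42 ± 0.07 on the log2 scale (adjusted p = 0.00016) and the change in D395A was -0.57 ± 0.07 (adjusted p = 1e-05). The difference of D395A from KO was -0.98 ± 0.07 (adjusted p = 1.5e-07), a 1.97-fold difference. Pou5f1 lies on chromosome 17 (GRCm38, 35506018 to 35510772, plus strand), and the antisense gene Gm19553 shares 14.1% of its exon bases. The libraries were made with a directional kit, but the strand setting used for counting is not stated in the labels, so the source of reads in that stretch is uncertain.

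Sox2, the HMG-box partner of OCT4, measured 280 and 302 CPM in the WT libraries, 308 and 265 in those of KO, and 311 and 286 in those of D395A. The 3 groups overlapped. Its log2 difference was -0.02 in KO (95% interval -0.20 to 0.15, adjusted p = 0.82) and 0.04 in D395A (-0.14 to 0.21, adjusted p = 0.70). D395A against KO gave 0.06 (-0.12 to 0.24, adjusted p = 0.57). Sox2 is a single-exon gene on chromosome 3 (34650405 to 34652461, plus strand) inside the long noncoding gene Sox2ot, which stood at 2.21 ± 0.318 CPM in WT, 1.35 ± 0.134 in KO and 1.24 ± 0.673 in D395A without passing the test (adjusted p = 0.11 and 0.082).

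Within a library, the ratio of Pou5f1 to Sox2 does not depend on scaling. Per kilobase it was 1.51 and 1.5 for the WT libraries, 1.93 and 2.16 for those of KO, and 0.984 and 0.994 for those of D395A. The groups did not overlap. The value itself depends on the length taken for Pou5f1: with the longest transcript of each gene, a setting chosen after seeing the data, the D395A libraries gave 1.62 and 1.64, those of WT 2.49 and 2.47, and those of KO 3.18 and 3.56, in the same order.

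Sall4, a zinc finger factor that works with OCT4 and recruits repressor complexes, measured 363 and 354 CPM in the WT libraries, 320 and 360 in those of KO, and 388 and 457 in those of D395A. WT and KO overlapped (-0.08, 95% interval -0.26 to 0.11, adjusted p = 0.45). It rose in D395A by 0.24 ± 0.09 (adjusted p = 0.024), a step as large as the 0.24 between the D395A libraries on the same scale. The call ended without WT replicate 1 (adjusted p = 0.11), WT replicate 2 (0.17) or D395A replicate 2 (0.16), and without genes of chromosomes 8, 11 and Y (0.087). Set against KO, D395A was higher by 0.31 ± 0.09 (adjusted p = 0.0084), a call that ended without KO replicate 1 (adjusted p = 0.084) and a difference that was 0.19 without D395A replicate 2 (adjusted p = 0.044). Sall4 lies on chromosome 2 (168748332 to 168767943, minus strand), and Gm14261 on the opposite strand shares 9.5% of its exon bases.

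Nr0b1, an orphan nuclear receptor that lacks a DNA-binding domain of the usual kind and binds OCT4, rose in D395A, whereas its value in KO was just short of the threshold on the lower side. It measured 33.4 and 36.6 CPM in the WT libraries, 32.5 and 29.5 in those of KO, and 73.3 and 73.1 in those of D395A. The D395A libraries were the highest, and the KO libraries lay just under WT. The rise in D395A was 1.06 ± 0.07 (adjusted p = 4.3e-08) over WT and 1.24 ± 0.07 (adjusted p = 2.8e-08) over KO. In KO it was -0.17 (95% interval -0.34 to -0.01) with an adjusted p of 0.055. That value passed the threshold without scaling factors (adjusted p = 0.023), in the robust fit (0.045) and without genes of chromosomes 8, 11 and Y (0.016). It did not pass in DESeq2 (adjusted p = 0.1). The change was -0.24 without WT replicate 1 or KO replicate 1. It shrank to -0.108 without WT replicate 2 and to -0.104 without KO replicate 2. Nr0b1 lies on the X chromosome (86191764 to 86195947, plus strand).

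Utf1 and Fbxo15, classic OCT4-SOX2 targets, fell in both lines by unequal amounts. Other targets of the pair, given further below, moved in both directions in each line. Utf1, a chromatin-bound factor of undifferentiated cells, measured 69.9 and 67.0 CPM in the WT libraries, 39.3 and 38.7 in those of KO, and 16.5 and 18.2 in those of D395A. The groups stepped down without overlap, by -0.81 ± 0.07 in KO (adjusted p = 2.9e-07) and -1.97 ± 0.07 in D395A (adjusted p = 2.1e-10). The difference of D395A from KO was -1.16 ± 0.07 (adjusted p = 6.4e-08). Utf1 lies on chromosome 7 (139943789 to 139945112, plus strand). Fbxo15, an F-box protein gene whose promoter was used to report reprogramming, was lowest in KO: the WT libraries measured 264 and 263 CPM, those of KO 103 and 104, and those of D395A 202 and 193. It changed by -1.34 ± 0.06 in KO (adjusted p = 1.7e-09) and -0.42 ± 0.06 in D395A (adjusted p = 4.7e-05), and it was higher in D395A than in KO by 0.93 ± 0.06 (adjusted p = 8.2e-08). Fbxo15 lies on chromosome 18 (84934782 to 84981473, plus strand). The ratio of Utf1 to Fbxo15 per kilobase was 0.726 and 0.697 for WT, 1.04 and 1.02 for KO, and 0.224 and 0.258 for D395A, so it lay above WT in KO and below WT in D395A. The value itself depends on the length taken for Fbxo15. With the longest transcript as the length, Fbxo15 stood above Utf1 in KO, at 41.0 beside 31.8 CPM per kilobase.

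Tcl1, a coactivator of AKT kinase, fell most of the 10 genes in both lines. It measured 58.4 and 61.8 CPM in the WT libraries, 15.5 and 14.1 in those of KO, and 3.28 and 3.49 in those of D395A, from 77 and 126 counts. The 3 groups were far apart relative to their replicates. The changes were -2.02 ± 0.08 in KO (4.07-fold, adjusted p = 4.1e-10) and -4.14 ± 0.10 in D395A (17.6-fold, adjusted p = 7e-12). The difference of D395A from KO was -2.12 ± 0.11 (adjusted p = 8.6e-09). Tcl1 lies on chromosome 12 (105216750 to 105222793, minus strand). Of its relatives Tcl1b1 to Tcl1b5, Tcl1b2 held 0 to 9 counts per library and the others 2 counts or fewer.

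Of the 5 genes with a promoter record, Tcl1, Utf1 and Nr0b1 had the largest steps in D395A, and their promoters are shown beside that of Pou5f1. Each is the 250 bases before the RefSeq transcript start (GRCm38.p6), 5′ to 3′ on the strand of the gene. Capitals mark the GC box GGGCGG or its complement CCGCCC.
Tcl1, chr12:105222738-105222987, minus strand: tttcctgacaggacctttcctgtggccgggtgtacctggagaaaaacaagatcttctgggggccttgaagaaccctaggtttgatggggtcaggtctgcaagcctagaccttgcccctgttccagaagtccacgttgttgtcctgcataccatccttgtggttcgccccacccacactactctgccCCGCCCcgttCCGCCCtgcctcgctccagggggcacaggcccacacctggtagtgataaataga
Utf1, chr7:139943606-139943855, plus strand: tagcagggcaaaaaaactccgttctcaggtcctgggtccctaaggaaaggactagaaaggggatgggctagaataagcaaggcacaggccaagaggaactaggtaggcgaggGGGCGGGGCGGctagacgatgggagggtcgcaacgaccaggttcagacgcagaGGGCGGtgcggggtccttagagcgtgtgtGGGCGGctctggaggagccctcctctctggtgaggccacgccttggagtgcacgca
Nr0b1, chrX:86191525-86191774, plus strand: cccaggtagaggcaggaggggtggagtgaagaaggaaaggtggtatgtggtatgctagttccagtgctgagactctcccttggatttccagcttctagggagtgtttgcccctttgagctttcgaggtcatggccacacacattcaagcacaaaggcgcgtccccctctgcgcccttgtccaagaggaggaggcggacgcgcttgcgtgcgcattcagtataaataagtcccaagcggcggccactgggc
Pou5f1, chr17:35505782-35506031, plus strand: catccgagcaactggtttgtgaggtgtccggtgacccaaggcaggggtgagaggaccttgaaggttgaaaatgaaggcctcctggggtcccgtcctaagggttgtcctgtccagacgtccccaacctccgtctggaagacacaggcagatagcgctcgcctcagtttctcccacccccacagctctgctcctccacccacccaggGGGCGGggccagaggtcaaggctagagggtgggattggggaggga
Both strands were searched for the POU octamer ATGCAAAT, the SOX core ACAATG, the ESRRB and NR5A2 half-site AAGGTCA and the GC box. These are held by 1.6%, 10.7%, 4.08% and 32.7% of 32851 promoter windows of this length. Tcl1 has GC boxes at -64 to -59 and -54 to -49 relative to the start. Utf1 has 4, at -138 to -133, -133 to -128 (sharing a base), -85 to -80 and -56 to -51. Pou5f1 has 1 at -45 to -40 and Nr0b1 none. Sox2, whose window was searched but is not printed, has 2. The other 3 motifs were in none of these 5 windows. A GC box stood in windows of genes that fell (Tcl1, Utf1) and of Sox2, which passed no test.

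Dppa2 and Dppa4, neighbours on chromosome 16, encode paired SAP-domain proteins that act together on chromatin in the early embryo, and their transcripts moved little. Dppa2 measured 64.8 and 63.2 CPM in the WT libraries, 53.0 and 56.2 in those of KO, and 48.6 and 56.5 in those of D395A. Both edited lines were below WT and overlapped each other. The changes were -0.23 ± 0.07 in KO (adjusted p = 0.016) and -0.28 ± 0.08 in D395A (adjusted p = 0.0053). The call in KO ended without WT replicate 1 (adjusted p = 0.11), WT replicate 2 (0.067) or KO replicate 1 (0.10). The change in D395A was -0.18 without D395A replicate 1 (adjusted p = 0.04).

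Dppa4 measured 45.0 and 48.1 CPM in the WT libraries, 36.3 and 34.0 in those of KO, and 38.1 and 37.2 in those of D395A. Its falls were -0.40 ± 0.07 (adjusted p = 0.00019) and -0.31 ± 0.07 (adjusted p = 0.0016). For D395A against KO, the log2 difference was -0.05 for Dppa2 (95% interval -0.21 to 0.12, adjusted p = 0.62) and 0.10 for Dppa4 (-0.05 to 0.25, adjusted p = 0.27). The ratio of Dppa2 to Dppa4 per kilobase ran from 0.868 to 1.12 over the 6 libraries. Both KO libraries (0.991 and 1.12) lay above both WT libraries (0.978 and 0.892), and D395A (0.868 and 1.03) overlapped WT and KO. Dppa2 (48303908 to 48319723) and Dppa4 (48283733 to 48294237) lie 9.67 kb apart, both on the plus strand. Morc1, the next tested gene beyond Dppa2 and a gene of the germline, fell by 0.97 ± 0.06 in KO and by 3.46 ± 0.07 in D395A, from 158 ± 1.11 to 14.4 ± 0.45 CPM.

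Genes known to depend on DPPA2 and DPPA4 were looked up as a list of 9, of which 6 were tested. In KO 1 of the 6 was lower and none higher (median -0.23). In D395A 4 were higher and 2 lower (median 2.69, beside 0.02 for all tested genes). Zscan4d, Zscan4c and Zscan4f, markers of a state that resembles early cleavage embryos, rose by 4.30 ± 0.25, 3.46 ± 0.21 and 3.49 ± 0.29 in D395A. The Zscan4 copies resemble each other closely, which makes the value of each one uncertain. Mael, a germline gene of the piRNA pathway, fell by 2.21 ± 0.20 in KO and 1.95 ± 0.20 in D395A.

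Dppa5a, an RNA-binding KH-domain gene of embryonic stem cells, had the same order of groups as Pou5f1 with a wider span. It measured 267 and 276 CPM in the WT libraries, 341 and 330 in those of KO, and 86.5 and 74.2 in those of D395A. It rose in KO by 0.30 ± 0.07 (adjusted p = 0.0029), a call that ended without WT replicate 1 (adjusted p = 0.054). It fell in D395A by 1.76 ± 0.08 (3.39-fold, adjusted p = 1.1e-09), and D395A stood 4.18-fold below KO (adjusted p = 6.4e-10). The ratio of Dppa5a to Pou5f1 per kilobase was 2.10 and 2.04 for WT, 1.91 and 1.92 for KO, and 0.939 and 0.868 for D395A. Dppa5a lies on chromosome 9 (78367052 to 78368177, minus strand). Its neighbour Ooep, a maternal gene of a related family, fell in both lines, by 2.06 ± 0.07 in KO and 2.78 ± 0.08 in D395A.

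**Figure D3:**
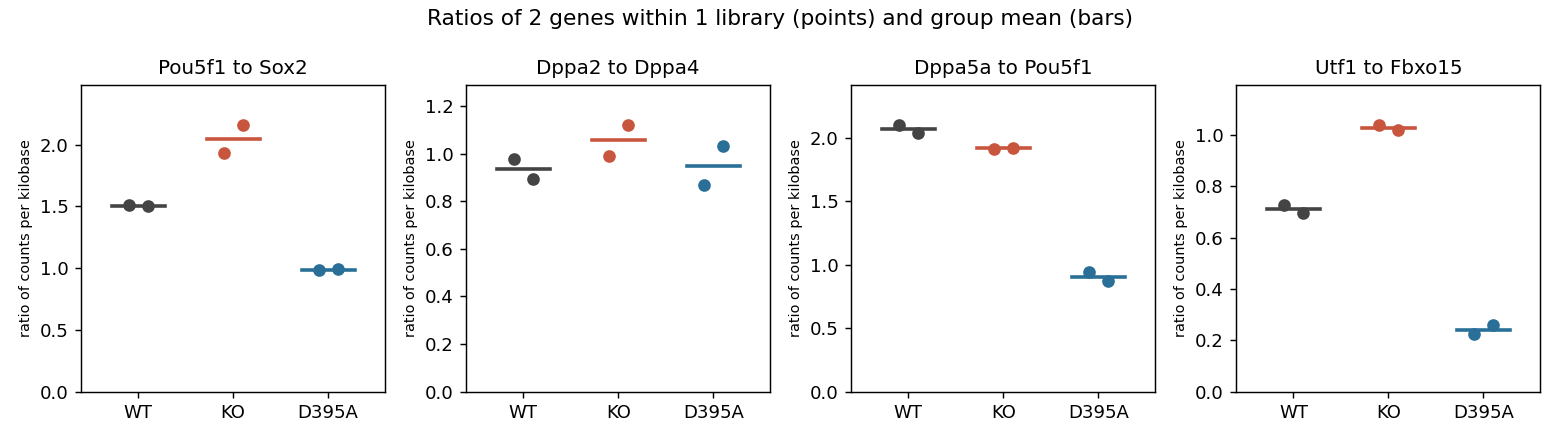
Ratios of counts per kilobase between pairs of genes within each library (points) and their group means (bars), on axes that start at 0. Pou5f1 to Sox2 rises from a mean of 1.5 in WT to 2.04 in KO and is 0.989 in D395A. For Dppa2 to Dppa4, D395A overlaps WT and KO, and the KO libraries lie just above those of WT.

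None of the 10 genes lies on chromosomes 8 or 11, whose median log2 fold changes were -0.48 and -0.42 for KO, then -0.35 and -0.49 for D395A. On the chromosomes that carry the 10 genes, medians of the other tested genes ran from -0.09 to 0.16 in KO and from -0.04 to 0.15 in D395A. Among the larger falls, those of Tcl1, Utf1 and Fbxo15 stood beside medians of -0.09 and 0.12 (chromosome 12), 0.14 and 0.10 (7) and 0.16 and 0.15 (18). Smaller steps included Sall4 in D395A at 0.24, beside 0.09 for chromosome 2. Dppa5a in KO was at 0.30, beside 0.14 for chromosome 9. The part of chromosome-wide shifts in the changes of the 10 genes was not tested.

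Some of the nearest tested genes on each side moved with their core gene and others did not. Tcf19, 1.96 kb from Pou5f1, fell by 1.30 ± 0.10 in KO, where Pou5f1 rose, and stood at 17.2 ± 0.953 CPM in D395A beside 17.6 ± 0.304 in WT (adjusted p = 0.69). Timm21, a mitochondrial import gene that overlaps the end of the Fbxo15 locus on the opposite strand without sharing exon bases, rose where Fbxo15 fell: its mean was 2.96 ± 0.129 CPM in WT, 26.0 ± 0.443 in KO and 11.8 ± 0.159 in D395A. Tunar, a noncoding RNA 111 kb from Tcl1, fell by 3.80 ± 0.22 in D395A and by 0.45 ± 0.16 in KO. Glrx5 on the other side of Tcl1 rose by 0.71 ± 0.08 in D395A. Gk, the nearest tested gene below Nr0b1, fell by 0.74 ± 0.07 in KO and 0.45 ± 0.07 in D395A. Mageb4 on the other side of Nr0b1, low in WT at 0.799 ± 0.156 CPM, fell by 2.76 ± 0.68 and 1.93 ± 0.65. Atp9a beside Sall4 fell by 0.84 ± 0.07 in D395A, where Zfp64 on the other side rose by 0.31 ± 0.06.

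**Figure D4:**
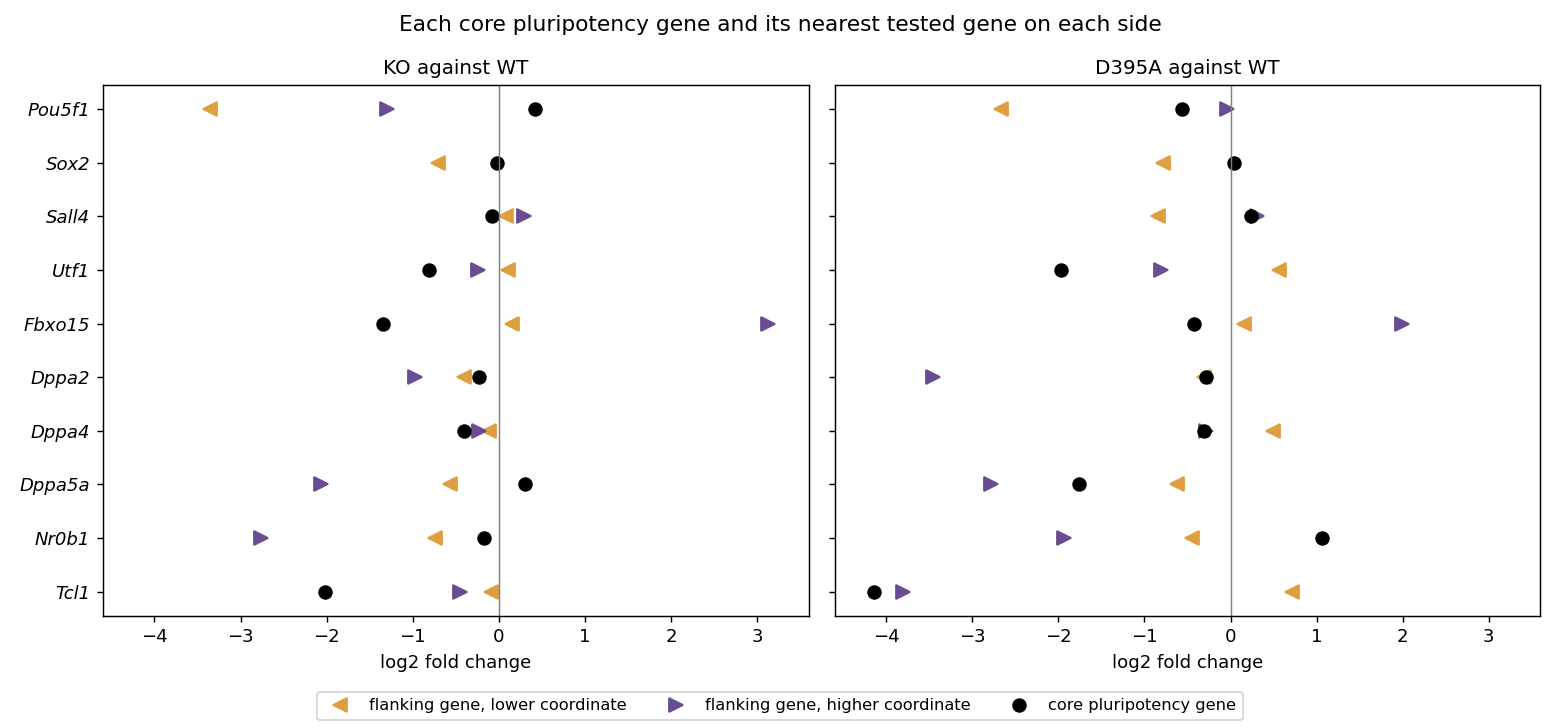
Log2 fold change of each core pluripotency gene (circles) and of the nearest tested gene on each side (triangles) in KO and D395A against WT. Gm3143 beside Sox2 is left out because it had 0 counts in D395A. The Fbxo15 neighbour Timm21 is at 3.13 in KO and the Dppa2 neighbour Morc1 at -3.46 in D395A.

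Across the 6 libraries, genes with the most alike pattern were found by the distance between log2 levels centred on their own mean, among 9202 other genes with a mean of at least 10 CPM. Pou5f1 was closest to Epb41l1 (distance 0.0943) and Cwc25 (0.120), and Sox2 to Zfas1 (0.0951) and Pnisr (0.0994). Sall4 was closest to Ube2d1 and Nup205, Utf1 to Nmnat2 and Lmo7, and Fbxo15 to Mthfd2 and Brsk1. Dppa2 was closest to Cad and Nfatc3, and Dppa4 to Ddx46 at a distance of 0.0350, the smallest of all, and to Cep250. Dppa5a was closest to Ddx3y and Ly6a, and Nr0b1 to Igsf10 and Exo1. For Tcl1 the closest genes were farther off: C330024D21Rik stood at 0.368 and Tuba3a, a tubulin gene of the testis, at 0.419.

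The wider pluripotency network was read from lists that leave out the 10 genes. Of 12 naive regulators, KO had 5 higher and 5 lower (median 0.13), and D395A had 2 higher and 10 lower (median -0.87). Nanog rose by 0.78 ± 0.07 in KO and fell by 1.01 ± 0.07 in D395A, the same directions as Pou5f1. Klf4 did likewise, at 0.41 ± 0.06 and -0.86 ± 0.06. Tbx3 rose by 0.49 ± 0.07 in KO and fell by 3.93 ± 0.08 in D395A, and Klf2 rose in both (1.78 ± 0.07 and 0.96 ± 0.07). Klf5 fell in both (-1.23 ± 0.08 and -1.69 ± 0.08), as did Zfp42 (-0.32 ± 0.06 and -1.20 ± 0.07). Gbx2 moved opposite to Pou5f1, with -1.49 ± 0.11 in KO and 2.18 ± 0.09 in D395A. Of 7 other OCT4-SOX2 targets, KO had 4 higher and 3 lower (median 0.64), and D395A had 2 higher and 5 lower (median -1.20). Among them Fgf4, a growth factor with a well-known OCT4-SOX2 enhancer, rose in KO (351 ± 6.40 CPM beside 226 ± 0.877 in WT) and fell in D395A (49.1 ± 3.98 CPM), whereas its fellow target Utf1 fell in both. Lefty1, an inhibitor of Nodal signalling, rose by 3.52 ± 0.14 in KO and 3.64 ± 0.14 in D395A, and Hesx1 changed by -4.02 ± 0.19 and -3.55 ± 0.18. Tdgf1, a Nodal coreceptor, fell by 0.63 ± 0.07 in KO and 3.79 ± 0.08 in D395A.

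Of 23 genes for proteins that bind OCT4, KO had 5 higher and 14 lower (median -0.25), and D395A had 7 higher and 13 lower (median -0.22). Zfp143, a zinc finger factor, fell by 1.16 ± 0.08 and 1.08 ± 0.08. Mbd3, a subunit of the NuRD repressor complex, rose by 0.70 ± 0.07 and 1.00 ± 0.07, and Mta1 of the same complex fell by 0.93 ± 0.07 in KO and rose by 0.19 ± 0.07 in D395A. Wdr5, a subunit of histone H3K4 methyltransferases, fell by 0.94 ± 0.07 in D395A. Of 21 tested general pluripotency genes, KO had 8 higher and 9 lower (median 0.05), and D395A had 8 higher and 12 lower (median -0.29). Lin28a fell by 3.25 ± 0.12 in KO and rose by 0.78 ± 0.09 in D395A, and L1td1 fell by 2.35 ± 0.09 in D395A.

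The labelled cell type was checked against 8 embryonic stem cell markers, which summed to 3900 and 3940 CPM (WT), 4540 and 4530 (KO) and 2090 and 2190 (D395A). Pou5f1 and Sox2 are among the 8. The 6 markers outside the 10 genes summed to 3156 and 3141 CPM (WT), 3587 and 3638 (KO) and 1448 and 1597 (D395A). Of these 6, KO had 2 higher (Nanog and Alpl), 2 lower (Tdgf1 and Zfp42) and 2 not called. D395A had 1 higher (Fut4), 4 lower and 1 not called. All 8 were detected, although Fut4 was low in WT at 0.523 ± 0.079 CPM and in KO at 0.558 ± 0.0254 CPM, beside 3.54 ± 0.655 CPM in D395A. Summed markers of other cell types lay below the embryonic stem cell markers in every library but not at 0, and some moved with D395A. Primed epiblast markers summed to 213 to 224 CPM in WT, 189 to 195 in KO and 343 to 366 in D395A, with 7 of 10 tested higher and 2 lower in D395A. Cdh2 rose by 3.36 ± 0.11 and Sox3, a relative of Sox2, by 2.80 ± 0.16 there, while Etv4, a factor downstream of FGF signalling, fell by 4.17 ± 0.10. Neural markers summed to 124 to 126 CPM in WT, 181 in both KO libraries and 82.1 to 82.5 in D395A. In KO 1 of 8 tested was higher, 2 were lower and 5 were not called. Ncam1 rose there by 1.77 ± 0.06, while Tubb3 fell by 1.94 ± 0.08 and Pax6 by 1.9 ± 0.46. In D395A 5 of 8 tested were higher and 3 lower. Tubb3 fell by 1.34 ± 0.07, Ncam1 by 1.08 ± 0.07 and Nes by 1.12 ± 0.09, and Pax6 rose by 3.08 ± 0.32. Primitive endoderm markers summed to 229 to 235, 190 to 191 and 86.1 to 93.7 CPM, and trophoblast markers to 133, 125 to 133 and 97.3 to 101 CPM. Of 9 tested endoderm markers 3 were higher and 4 lower in D395A, with Lama1 down from 207 ± 3.56 to 31.0 ± 3.34 CPM and Foxa2 up from 0.106 ± 0.0453 to 21.3 ± 1.61 CPM. Of 10 tested trophoblast markers 5 were higher and 2 lower, with changes of -2.15 ± 0.08 for Tead4 and -3.02 ± 0.14 for Eomes, and Cdx2 up from 0.089 ± 0.0479 to 2.91 ± 0.277 CPM. Mesoderm markers (5.63 to 26.2 CPM) and fibroblast markers (6.69 to 12.9 CPM) had the lowest sums in all libraries. None of these 6 lists had a marker at 0 in all libraries. Under 1 CPM in every library were 5 of 10 fibroblast markers, 3 of 9 mesoderm markers, 2 of 11 trophoblast markers and 1 marker each of the endoderm, primed epiblast and neural lists. Fgf5, a defining marker of the primed state, was at 0 counts in both WT libraries and at 3 in each D395A library. Col3a1, a fibroblast collagen, was at 0 in WT and KO and at 12 and 23 counts in the D395A libraries. Of 6 tested mesoderm markers 2 were lower in KO and 3 in D395A, none higher. Of 6 tested fibroblast markers KO had 3 higher and 1 lower, and D395A had 4 higher and 2 lower. The part of these markers in the changes of the 10 genes was not tested.

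Since METTL3 writes m6A, the letters GGACT, the most common form of its target motif, were counted on the sense strand of the longest coding transcript. The median over 14406 tested genes was 1.06 per kb. Utf1 held 1.63 per kb, Fbxo15 1.57, Sox2 1.46 and Sall4 0.99. Pou5f1 held 0.73, Tcl1 0.72 and Dppa2 0.41, from 1 occurrence each. Dppa4, Dppa5a and Nr0b1 held none. A match is a description of the sequence and not a methylated site.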

How the data were processed

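Trimmomatic 0.36, STAR 2.7 and HTSeq 0.11.2 on mm10 are named in the submitters' processing notes. Neither the strand setting of the counting nor its annotation release is given in the sources used here. Per the labels' protocols, ribosomal RNA was removed and a directional kit was used. The authors deposited raw HTSeq counts, 1 table per library. HTSeq's summary lines, 29.0% to 44.2% of each library's reads, were left out. The test was run in edgeR 4.0.16 under R 4.3.3 (filterByExpr, TMM, quasi-likelihood F test, all 6 libraries in 1 model, no covariates). P-values were adjusted by Benjamini-Hochberg over 15663 genes, with a threshold of 0.05. Levels are TMM-scaled CPM, mean ± SD over 2 libraries; fold changes are log2 ± SE, and 95% intervals rest on that SE. An exact permutation test of 2 against 2 libraries cannot go below p = 0.333 and was not used. Gene models came from GENCODE M21 (GRCm38), which held 97.89% of the symbols, and promoters from RefSeq, which matched 5 of the 10 genes (Pou5f1, Sox2, Utf1, Nr0b1 and Tcl1).

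All 10 genes, the 2 genes most alike each of them, the nearest tested genes on each side, up to 4 genes per list and comparison by adjusted p, and Mettl3, Nanog, Klf4, Esrrb, Zfp42, Gata6, Cdx2, Fgf5, Pou3f1, Sox3 and Sox17 were eligible to be named. The genes and lists were chosen with earlier results of these data known. DESeq2 1.42.0, limma-voom (limma 3.58.1), other scalings, other filters, a replicate block and leaving out each library were tried as alternatives.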

Additional observations from a re-analysis of the deposited data

Results flagged for a closer look

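The effects of the edited lines differed for 7 of the 10 genes in the direct test of D395A against KO (edgeR quasi-likelihood, adjusted over all tested genes), where 50.4% of all tested genes differed. Log2 differences, D395A minus KO, were -0.98 for Pou5f1, -1.16 for Utf1, -2.06 for Dppa5a and -2.12 for Tcl1, each lower in both D395A libraries. They were 0.31 for Sall4, 0.93 for Fbxo15 and 1.24 for Nr0b1, each higher in both D395A libraries. Pou5f1 and Dppa5a were the genes past the threshold in opposite directions against WT, higher in KO and lower in D395A.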

How the results depend on the processing

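Of 450 alternative values for the log2 fold changes of the 10 genes, 427 kept their direction and their side of the threshold. Under other scalings no value moved by more than 0.058. Nr0b1 in KO passed the threshold without scaling factors (-0.21), without genes of chromosomes 8, 11 and Y (-0.23) and in the robust fit (-0.17). Without those chromosomes Sall4 in D395A lost its call (0.17) and Sox2 in D395A changed sign (-0.03). Dppa2 in D395A against KO changed sign without scaling factors (0.007). The cause was not tested. The order by level per kilobase kept 6 of 10 ranks with the longest transcript, which changes the length alone, and the ratio of Pou5f1 to Sox2 was then 2.48 (WT), 3.37 (KO) and 1.63 (D395A).

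Leaving out each library in turn, KO against WT ran from -0.27 to -0.183 for Dppa2, 0.28 to 0.329 for Dppa5a, -0.13 to 0.083 for Sox2, -0.163 to 0.012 for Sall4 and -0.241 to -0.104 for Nr0b1. D395A against WT ran from -0.022 to 0.096 for Sox2, 0.114 to 0.353 for Sall4 and -0.397 to -0.178 for Dppa2. D395A against KO ran from 0.188 to 0.427 for Sall4, -0.049 to 0.163 for Sox2 and -0.17 to 0.049 for Dppa2. Signs of values that passed no test turned for Sox2 in KO without WT or KO replicate 2, in D395A without WT or D395A replicate 1, and in D395A against KO without KO replicate 2 or D395A replicate 1; for Sall4 in KO without KO replicate 1; and for Dppa2 in D395A against KO without D395A replicate 1. The lone library left in a group was assumed to vary like the others. Members called ran from 5 to 7, 8 to 9 and 6 to 7.

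Same-numbered libraries share only a number. Their deviations correlated at 0.013 (WT and KO), -0.004 (WT and D395A) and -0.221 (KO and D395A). With the replicate block, 10220, 10843 and 7832 genes were called, and 7, 9 and 7 of the 10. With crossed numbers, a setting chosen after seeing the data, D395A against KO called 7716 genes and 7 of the 10. Depth limits the precision of Tcl1 in D395A most (77 and 126 counts).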

Other observations

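Of 14 tested relatives, 5 were higher and 5 lower in KO (median 0.15), and 6 were higher and 3 lower in D395A (median 0.37, beside 0.02 for all tested genes). Over all tested genes 66.2% and 70.3% were called in these comparisons. Sall2 and Sall3, paralogs of Sall4, rose in both lines, Sall2 with a mean of 5.76 ± 0.27 CPM for WT, 26.6 ± 0.226 for KO and 45.2 ± 2.43 for D395A, and Sall3 by 2.04 ± 0.11 and 2.83 ± 0.11 on the log2 scale. Sall4 itself passed no test in KO and rose by 0.24 ± 0.09 in D395A. Pou2f3, a POU-domain relative of Pou5f1, stood at 96.2 ± 0.988 CPM in WT and 109 ± 9.63 CPM in KO (adjusted p = 0.13) and fell to 15.6 ± 3.76 CPM in D395A. Pou6f1 rose by 0.86 ± 0.08 in KO and stood at 13.2 ± 0.363 CPM in D395A beside 14.1 ± 0.788 in WT (adjusted p = 0.36). Sox3 changed by -0.82 ± 0.19 in KO and 2.80 ± 0.16 in D395A, while Sox2 passed neither test. Dppa3 is counted among the 14, though it shares the Dppa name but no family with Dppa2 and Dppa4. It fell by 3.35 ± 0.13 in KO and rose by 1.53 ± 0.09 in D395A. These adjusted p are from edgeR's quasi-likelihood test.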
